A study of Mus musculus with 10 samples.

Results

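Binding sites of p65 that were called in unstimulated regulatory and conventional T cells, and after stimulation in regulatory T cells alone, numbered 344 of the 11923 regions of the series. They were chosen from list membership. Overlapping entries were merged within each of the authors' 4 peak lists and then across the lists, and a merged region qualified when it held a peak of stimulated regulatory T cells (Treg), unstimulated Treg and unstimulated conventional T cells (Tconv), and none of stimulated Tconv. Of the 2532 regions called in both unstimulated lists, these were 13.6% (95% Wilson interval 12.3 to 15%), which is the count that the choice itself fixes. They are called the Treg-kept regions here.

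The cells were taken from spleen and lymph nodes of mice of the C57BL/6 strain. Stimulated Treg had 3 h on a coat of antibody to CD3, through which the T cell receptor signals, with soluble antibody to CD28, a co-stimulatory receptor, and IL-2 at 10 ng/ml. Unstimulated Treg were the same cell type without those antibodies. Stimulated Tconv had the same 3 h of CD3 and CD28 antibodies with IL-2 at 2 ng/ml, and unstimulated Tconv had none. How the unstimulated cells were cultured was not stated in the labels. Chromatin was precipitated with an antibody against p65 and sequenced (ChIP-seq), with 2 libraries in each of the 4 groups. Both libraries of a group stand behind 1 deposited peak list, so a spread between replicates cannot be given, the depth is unknown, and every interval below covers counting error over regions alone. Cell type and IL-2 concentration changed together between the stimulated groups and cannot be told apart.

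p65 (RelA) is a subunit of NF-kB, a dimeric transcription factor held in the cytoplasm by inhibitor proteins of the IkB family. Signals from the T cell receptor and CD28 degrade the inhibitors and release the dimers, which enter the nucleus and bind kappaB motifs at genes of activation and survival. NF-kB also takes part in the development and function of Treg, whose defining transcription factor is Foxp3. At the Foxp3 locus, the stimulated Treg list held 2 regions nearest to Foxp3, and each of the other lists, which are shorter, held 0, so this locus does not tell unstimulated Treg from Tconv.

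The DNA under the Treg-kept regions is shown first, since p65 is known for binding the kappaB motif. The sequences are RefSeq's for the assembly GRCm38.p6, whose coordinates are those of mm10, read on the strand of the gene from 5′ to 3′. The 8 stretches below come from the regions with the highest fold enrichment in stimulated Treg among those whose unstimulated Treg summit lay in a RefSeq promoter window (the 250 bases before a gene start and the 50 after). Each reaches 50 bases to either side of that summit, cut at the end of the window. Capitals mark a match to kappaB, to the ETS letters CCGGAAG, to the NRF1 letters GCGCATGC or to the GC box GGGCGG, on either strand.
Zbtb4 (chr11:69765850-69765950, + strand): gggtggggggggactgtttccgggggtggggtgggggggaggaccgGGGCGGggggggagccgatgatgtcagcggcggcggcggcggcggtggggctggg
Cbx1 (chr11:96789082-96789182, + strand): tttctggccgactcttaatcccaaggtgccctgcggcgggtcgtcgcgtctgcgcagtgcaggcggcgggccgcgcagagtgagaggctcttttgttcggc
Hnrnpa0 (chr13:58128536-58128636, - strand): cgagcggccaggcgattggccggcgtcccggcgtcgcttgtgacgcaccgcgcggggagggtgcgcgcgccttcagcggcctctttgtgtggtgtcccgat
Hlcs (chr16:94313542-94313642, - strand): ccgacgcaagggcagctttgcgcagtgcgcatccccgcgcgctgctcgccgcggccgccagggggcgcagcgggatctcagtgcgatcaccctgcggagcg
Rab3a (chr8:70754569-70754669, + strand): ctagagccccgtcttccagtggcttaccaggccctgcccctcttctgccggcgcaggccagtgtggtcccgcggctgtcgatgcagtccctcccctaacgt
Aatf (chr11:84513573-84513673, - strand): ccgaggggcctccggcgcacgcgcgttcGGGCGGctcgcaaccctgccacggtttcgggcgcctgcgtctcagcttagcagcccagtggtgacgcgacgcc
Slc35d1 (chr4:103215333-103215426, - strand): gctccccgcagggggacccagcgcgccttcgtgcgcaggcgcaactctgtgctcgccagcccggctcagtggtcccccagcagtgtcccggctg
Ncln (chr10:81496458-81496558, - strand): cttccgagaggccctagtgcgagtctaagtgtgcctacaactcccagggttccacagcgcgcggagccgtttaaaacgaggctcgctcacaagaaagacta
These 8 genes encode a repressor of methylated DNA (Zbtb4), a heterochromatin protein (Cbx1), an RNA-binding protein (Hnrnpa0), the enzyme that attaches biotin to carboxylases (Hlcs), a GTPase of secretory vesicles (Rab3a), a transcription cofactor that counters apoptosis (Aatf), a nucleotide sugar transporter (Slc35d1) and a membrane protein of the endoplasmic reticulum (Ncln). In the 8 stretches there were 0 kappaB, 0 ETS and 0 NRF1 matches, and the capitals are GC boxes near the summits of Zbtb4 and Aatf. Over the whole windows, Zbtb4 held 1 kappaB match and Aatf held 1 ETS match, both farther from the summit.

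The 3 windows below are shown because they do hold kappaB. They are the next regions by fold in stimulated Treg that did so, and capitals mark kappaB alone.
Hnrnpf (chr6:117917044-117917343, + strand): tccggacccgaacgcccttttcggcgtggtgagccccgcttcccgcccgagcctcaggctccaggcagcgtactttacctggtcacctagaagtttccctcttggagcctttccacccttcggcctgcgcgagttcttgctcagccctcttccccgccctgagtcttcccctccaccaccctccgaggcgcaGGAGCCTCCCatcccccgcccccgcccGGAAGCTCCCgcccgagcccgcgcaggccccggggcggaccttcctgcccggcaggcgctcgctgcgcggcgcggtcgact
Slain1 (chr14:103649978-103650277, + strand): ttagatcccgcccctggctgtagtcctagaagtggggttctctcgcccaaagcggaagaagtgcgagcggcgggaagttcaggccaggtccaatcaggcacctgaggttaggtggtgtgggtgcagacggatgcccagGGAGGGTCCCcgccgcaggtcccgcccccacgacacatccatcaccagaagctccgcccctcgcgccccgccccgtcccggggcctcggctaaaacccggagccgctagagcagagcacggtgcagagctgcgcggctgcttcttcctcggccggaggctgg
Phtf2 (chr5:20882075-20882374, - strand): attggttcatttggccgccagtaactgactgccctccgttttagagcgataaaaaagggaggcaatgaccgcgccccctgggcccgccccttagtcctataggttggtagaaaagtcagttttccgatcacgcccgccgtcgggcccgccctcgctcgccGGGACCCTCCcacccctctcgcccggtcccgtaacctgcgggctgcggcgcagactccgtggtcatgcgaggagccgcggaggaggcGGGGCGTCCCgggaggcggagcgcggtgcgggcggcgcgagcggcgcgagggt
Hnrnpf, an RNA-binding splicing regulator, and Phtf2 each held 2 kappaB matches, and Slain1, which encodes a microtubule protein, held 1. In Hnrnpf the second kappaB match shares bases with an ETS match, so the same letters count for both. The unstimulated Treg summit lay 37 bases before the annotated start of Hnrnpf, 18 before that of Slain1 and 36 before that of Phtf2.

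The last set shows the NRF1 motif at the summit. NRF1, nuclear respiratory factor, binds GC-rich promoters of many housekeeping and mitochondrial genes. The 5 stretches are those of highest fold in unstimulated Treg with a match within 50 bases of the summit, a set chosen after the values were seen, and capitals mark NRF1 alone.
Acp1 (chr12:30911563-30911650, - strand): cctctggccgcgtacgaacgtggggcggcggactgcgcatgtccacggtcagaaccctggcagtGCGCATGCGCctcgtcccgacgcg
Nup107 (chr10:117792724-117792824, - strand): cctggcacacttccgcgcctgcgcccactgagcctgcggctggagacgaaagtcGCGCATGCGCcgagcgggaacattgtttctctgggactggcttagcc
Tbc1d20 (chr2:152293748-152293848, + strand): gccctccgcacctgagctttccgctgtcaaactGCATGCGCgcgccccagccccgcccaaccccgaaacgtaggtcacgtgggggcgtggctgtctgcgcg
Rabl6 (chr2:25608459-25608559, - strand): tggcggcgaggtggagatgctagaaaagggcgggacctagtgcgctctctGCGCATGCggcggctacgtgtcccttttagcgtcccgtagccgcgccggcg
Dna2 (chr10:62946961-62947061, + strand): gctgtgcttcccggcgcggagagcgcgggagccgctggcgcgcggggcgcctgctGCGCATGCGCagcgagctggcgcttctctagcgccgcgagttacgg
Acp1 encodes a tyrosine phosphatase, Nup107 a protein of the nuclear pore, Tbc1d20 an activator of Rab GTPase hydrolysis, Rabl6 a Rab-like GTPase and Dna2 a nuclease and helicase of DNA replication. In Acp1, Nup107 and Dna2 the capitals join 2 overlapping matches, since the motif reads on both strands there. Fold enrichment at Acp1 was 8.12 in stimulated Treg, 23.2 in unstimulated Treg and 21.6 in unstimulated Tconv. At Dna2 it was 10.4 in stimulated Treg, 15.6 in unstimulated Treg and 14.4 in unstimulated Tconv.

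Fold enrichment is the summit's signal over local background as the authors' peak caller gave it, with its −log10 p, and both values are the authors' own. They place a region within its list and are not compared between lists as a change. In stimulated Treg the Treg-kept regions ran from 3.00 to 16 with a median of 8.72 and quartiles of 7.90 and 10.4. In unstimulated Treg they ran from 2.92 to 25.6 with a median of 8.13, and in unstimulated Tconv from 3.12 to 37.9 with a median of 7.94. The Treg-kept regions stood low in the stimulated Treg list and near the middle of the unstimulated lists. By −log10 p their median percentile was 22.7 in the stimulated Treg list, 48.5 in the unstimulated Treg list and 45 in the unstimulated Tconv list. Regions of all 4 lists stood higher, at medians of 63.1, 70.4 and 67.3 in the same 3 lists. Regions of both unstimulated lists alone stood at 42 in the unstimulated Treg list and 43.2 in the unstimulated Tconv list. Regions of both unstimulated lists and stimulated Tconv, without stimulated Treg, stood at 14.3 in the stimulated Tconv list. In the unstimulated Treg and Tconv lists those stood at 72 and 69.7. These values come from the lists that chose the regions and are a description without a test.

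The order of the regions was shared between the resting cell types and not between the states of Treg. Over the 344 regions, Spearman's rho of fold enrichment was 0.76 between unstimulated Treg and unstimulated Tconv, and 0.00 between stimulated and unstimulated Treg. Between stimulated Treg and unstimulated Tconv it was −0.04. In regions of all 4 lists the same 3 values were 0.92, 0.01 and −0.06, so those regions showed the same contrast. The points share the caller, but the lists do not share a lowest −log10 p. It was 26.6 in stimulated Treg, 15.1 in unstimulated Treg and 13.3 in unstimulated Tconv. Regions are not replicates, and the coefficients carry no test.

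**Figure D1:**
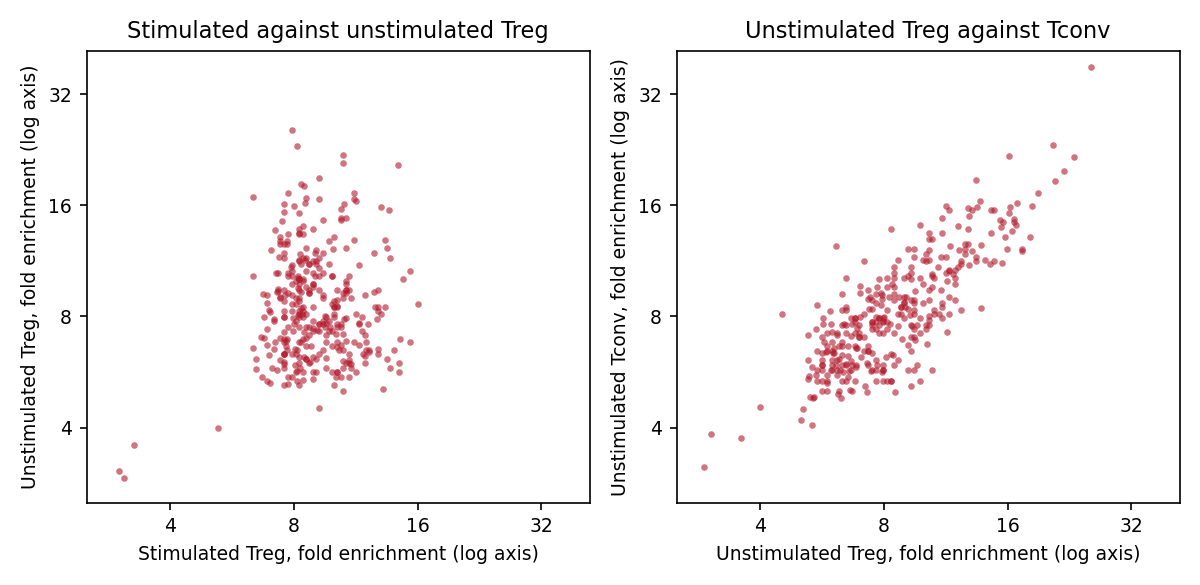
Each point is 1 of the 344 Treg-kept regions, and both axes give the authors' fold enrichment on a log scale. On the left, stimulated Treg on the horizontal axis is set against unstimulated Treg, and on the right unstimulated Treg against unstimulated Tconv. The left cloud has no slope (rho 0.00) and the right one rises (rho 0.76).

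Of the 10 strongest Treg-kept regions of the stimulated Treg list, none had a nearest gene in the gene lists described further on. The highest, chr15:65730951-65732356, lay 55.8 kb from the nearest protein-coding gene, with a fold enrichment of 16 in stimulated Treg, 8.63 in unstimulated Treg and 6.09 in unstimulated Tconv. Inside Sag, which encodes an arrestin of the retina, the values were 15.3, 6.83 and 5.91 in the same order, and the start of Zbtb4 had 15.3, 10.6 and 8.31. High values were also held by Trerf1, a transcriptional regulator, with 14.7 in stimulated Treg, and by Clk1, a kinase of splicing factors, with 14.5. Cbx1 had 14.4, Pglyrp2, a peptidoglycan-cleaving amidase, had 14.0, and Ldlrad4, an inhibitor of TGF-beta signalling, had 13.7. All of the 10 strongest but Lrba had fold enrichments under 11 in both unstimulated lists.

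Lrba was high in all 3 lists. Its protein is known for trafficking CTLA-4, an inhibitory receptor of Treg, back to the cell surface. The region at chr3:86223568-86225147 had a fold enrichment of 14.3 in stimulated Treg, 20.6 in unstimulated Treg and 23.3 in unstimulated Tconv, and was among the highest of the Treg-kept regions in each.

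The strongest resting regions were mostly not the strongest after stimulation. Inside Snx29, a sorting nexin gene, the region chr16:11685928-11688357 had 7.90 in stimulated Treg, the lower quartile of the Treg-kept regions, with 25.6 in unstimulated Treg and 37.9 in unstimulated Tconv, their highest values in both lists. Usp37, a deubiquitinase, had 10.5 in stimulated Treg, 21.9 in unstimulated Treg and 19.8 in unstimulated Tconv. Rfx2, a transcription factor of ciliated cells, had 10.5, 20.9 and 18.6 in the same order, and Tbc1d20 had 7.57, 16.1 and 21.8.

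Some Treg-kept regions stood nearest to the lowest −log10 p of the stimulated Treg list. Among them was Ndufv1, a subunit of respiratory complex I, with a −log10 p of 26.6. The splicing factor gene Srsf11 and the syntaxin gene Stx7 had 27.2 each. A region near the interferon gene Ifna13 had 26.8, and its fold enrichment was 3.09 in stimulated Treg, 2.92 in unstimulated Treg and 3.12 in unstimulated Tconv. A region 181 kb from any protein-coding gene had 27.0.

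The lists reached down to different −log10 p values, and this bears on which regions qualify. The lowest −log10 p was 26.6 in the stimulated Treg list of 11077 regions and 38.1 in the stimulated Tconv list of 5734 regions. In 191 of the 344 Treg-kept regions (55.5%, 50.2 to 60.7%) the −log10 p in stimulated Treg was itself under 38.1, against 172 of 1644 regions of all 4 lists (10.5%, 9.07 to 12.0%). The other 153 lay at or above it. With 38.1 as the lower limit in all 4 lists, 34 of the 344 regions still qualified. Regions kept in stimulated Tconv alone then numbered 155, against 69 in the lists as deposited. This limit also cut the unstimulated lists. There the median −log10 p of the Treg-kept regions was 32.6 in Treg and 28 in Tconv, both under the limit. The fall to 34 is thus not the effect of the stimulated lists alone. When each list was cut to the number of entries of the shortest, the counts were 25 and 464. With the upper 50% of each list they were 139 and 93. Which cell type kept more resting regions thus turned round at the common limit and at equal lengths, and not with the upper 50%. A common limit takes −log10 p as alike between lists, which was not tested, and depth is unknown. A region missing from the stimulated Tconv list was not called there, which does not show that p65 was absent.

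**Figure D2:**
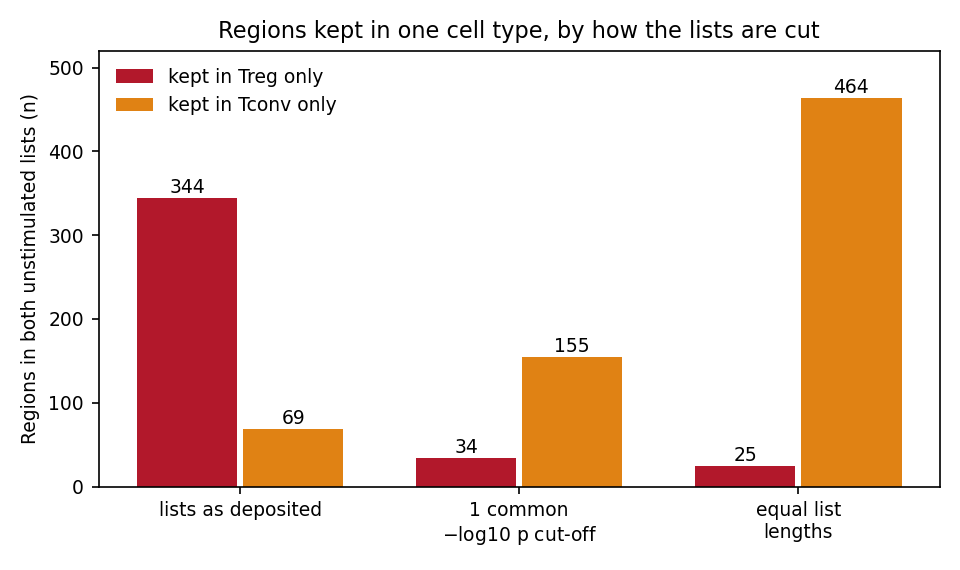
Bars give the number of regions called in both unstimulated lists that were kept in stimulated Treg alone (red) or in stimulated Tconv alone (orange). The lists as deposited gave 344 and 69, a common −log10 p limit gave 34 and 155, and equal list lengths gave 25 and 464.

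**Figure D3:**
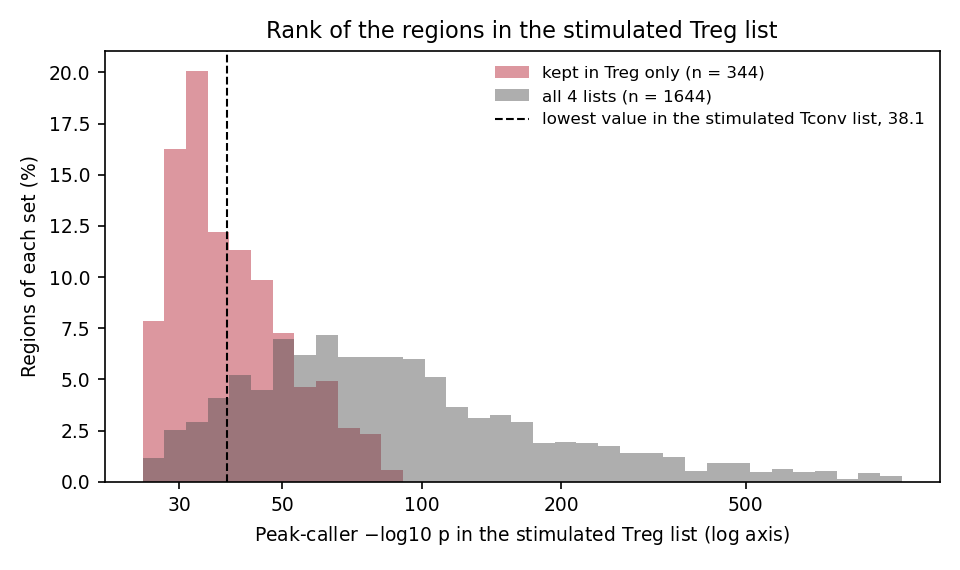
The histogram gives the percentage of regions of each set by their −log10 p in the stimulated Treg list, on a log axis, for the 344 Treg-kept regions (red) and the 1644 regions of all 4 lists (grey). The dashed line marks 38.1, the lowest value of the stimulated Tconv list, and 55.5% of the Treg-kept regions lie left of it.

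The 34 regions that qualified under the common limit included Lrba, Hnrnpa0 and Aatf from the strongest of stimulated Treg, Usp37 and Rfx2 from the strongest at rest, and Dna2. The RNA-binding protein genes Hnrnpu and Srsf5, the SUMO ligase gene Pias4, Cd47, which encodes the surface signal against phagocytosis, Ccne1, which encodes cyclin E, and the DNA repair scaffold gene Xrcc1 were also among them. Pias4, Cd47 and Ccne1 are named here after their values were seen. Cd47 had a fold enrichment of 10.6 in stimulated Treg, 16.1 in unstimulated Treg and 15.3 in unstimulated Tconv. Ccne1 had 9.20, 16.6 and 14.7 in the same order.

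On the other side of the limit stood regions that the stimulated Tconv list only just held. The 5 nearest to it were Ano6, an ion channel and lipid scramblase gene, Taf1a, a factor of RNA polymerase I, Rpp38, Sptbn4 and Hibadh. Their −log10 p in stimulated Treg was 36.7 at Ano6, 50.9 at Taf1a, 37.9 at Rpp38, 40.7 at Sptbn4 and 40.5 at Hibadh, all within the range of the Treg-kept regions, which was 26.6 to 86.0. In stimulated Tconv it was 38.1 at Ano6 and at Taf1a, 38.4 at Rpp38 and at Sptbn4, and 38.8 at Hibadh. Nearest to a stimulated Tconv peak without touching it were the Treg-kept regions of Prpf4b at 0.185 kb, Sag at 0.198 kb, Sart3 at 0.236 kb, Hdac4 at 0.672 kb and Kif16b at 0.790 kb. Those 5 were all that lay within 1 kb. The median distance to the nearest stimulated Tconv peak was 71.8 kb, and 40 regions (11.6%) had a peak within 10 kb.

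Treg-kept regions were mostly at gene ends. By the strongest unstimulated Treg summit, 277 of 344 (80.5%, 76.0 to 84.4%) lay within 1 kb of an end of a protein-coding gene. Regions of all 4 lists did so in 1214 of 1644 (73.8%, 71.7 to 75.9%), for an odds ratio of 1.46 (two-sided Fisher's exact test, p = 0.00922, and 0.00922 after Benjamini-Hochberg adjustment over 2 tests). Regions of both unstimulated lists alone, which neither stimulated list held, did so in 324 of 475 (68.2%, 63.9 to 72.2%), for an odds ratio of 1.93 (Fisher's exact test, p = 8.36e-05, adjusted p = 0.000167). Regions kept in stimulated Tconv alone did so in 62 of 69 (89.9%, 80.5 to 95%), a higher share that was not tested. Of whole lists, the stimulated Treg list gave 33.0% and the unstimulated Treg list 70.4%, and the stimulated Tconv list gave 39.0% and the unstimulated Tconv list 72.2%. Under 1 limit for all lists, with 34 Treg-kept regions left, the odds ratios were 1.90 and 2.29 and neither passed the threshold (Fisher's exact test, adjusted p = 0.278 for each). With the upper 50% of each list the odds ratios were 0.999 against all 4 lists and 0.938 against the unstimulated lists alone. Regions share neighbourhoods and a peak caller, so the p-values are those of a count of regions, not of repeated experiments.

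A RefSeq start lay within 1 kb of 239 Treg-kept regions (69.5%), against 67.2% in all 4 lists and 62.5% in the unstimulated lists alone. Regions at a gene end with no listed start within 1 kb were 18.3%, 14.5% and 14.3% in the same order. These shares were not tested. At the 239 regions the summit sat close to the start. The median distance was 71.0 bp, 145 of the 239 (60.7%) were within 100 bp, and 165 (69.0%) lay before the start, toward the promoter. The same 3 values were 69 bp, 64.6% and 76.4% in all 4 lists, and 56 bp, 66.7% and 65.3% in the unstimulated lists alone. Regions kept in stimulated Tconv alone gave 57 bp, 71.7% and 71.7%. The other Treg-kept regions comprised 63 at a gene end with no listed start within 1 kb, 19 inside a gene, 17 outside within 50 kb and 6 farther away. Starts on both strands lay within 1 kb of 28 regions (8.14%), against 145 of 1644 regions of all 4 lists (8.82%) and 22 of 475 of the unstimulated lists alone (4.63%). A Treg-kept region spanned 1144 bp at the median, against 1576 bp for regions of all 4 lists and 824 bp for those of the unstimulated lists alone.

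The summits of a region lay close together between cell types at rest and a little farther apart between the states of Treg. The cause was not tested. Between stimulated and unstimulated Treg the strongest summits were 34.0 bp apart at the median and within 100 bp in 264 of 344 regions (76.7%). Between unstimulated Treg and unstimulated Tconv they were 16 bp apart and within 100 bp in 330 (95.9%). Regions of all 4 lists gave 27.0 bp and 82.7% for the first pair and 13.0 bp and 95.1% for the second.

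The summit fell in a RefSeq promoter window in 180 Treg-kept regions, 889 regions of all 4 lists and 218 of the unstimulated lists alone. These windows were rich in GC, at a median of 65% in Treg-kept regions, 65.7% in all 4 lists and 63.7% in the unstimulated lists alone, against 56.3% in all 21263 windows. CpG pairs numbered 28.5, 29.0 and 26.0 per window at the median in the same sets, against 13.0 in all windows. On either strand, 12 motifs were searched. They were kappaB and ISRE, CCGGAAG for ETS, GCGCATGC for NRF1, GGGCGG for the GC box, TGACGTCA for CRE, CACGTG for the E-box, AAGATGGC for YY1, ACTACAA for ZNF143, TGANTCA for AP-1, TGTGGT for RUNX and CCAAT for the CCAAT box. Some overlap one another, as the kappaB and ETS matches of Hnrnpf do.

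A kappaB match stood about as often in the promoter windows that held a Treg-kept summit as in promoters at large. It stood in 17 of 180 windows (9.44%, 5.98 to 14.6%), in 128 of 889 of all 4 lists (14.4%), in 19 of 218 of the unstimulated lists alone (8.72%) and in 9.25% of all windows. Against all 4 lists the odds ratio was 0.62 (two-sided Fisher's exact test, p = 0.0939, adjusted p = 0.751 over 24 tests). NRF1 stood in 33 windows (18.3%), against 25% in all 4 lists, 17.4% in the unstimulated lists alone and 3.52% of all windows, with p = 0.0680 (adjusted 0.751, Fisher's exact test) against all 4 lists. ETS stood in 43 windows (23.9%), against 22%, 19.3% and 11.6% in the same sets, and the GC box in 146 (81.1%), against 79.0%, 76.1% and 46.2%. AP-1, the partner motif of many activation genes, stood in 1.67%, against 3.37%, 1.83% and 6.99%. All windows differ from these sets in GC content, so the last percentage of each is background and was not tested.

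Of the 24 motif tests, 0 passed an adjusted p of 0.05 by Fisher's exact test, and 1 had an unadjusted p below it. That was CRE, the cyclic AMP response element, which stood in 7 of 180 Treg-kept windows (3.89%) against 0 of 218 of the unstimulated lists alone, a count that allows up to 1.38% by 3 counts of the total and 1.73% by the Wilson interval (Fisher's exact test, p = 0.00363, adjusted p = 0.0870). With regions matched by summits within 250 bp in place of overlap, its adjusted p by the same exact test was 0.0355, and in the upper 50% of each list the difference was −0.701 percentage points. In all 4 lists CRE stood in 3.60% of windows, and in 2.23% of all windows.

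**Figure D4:**
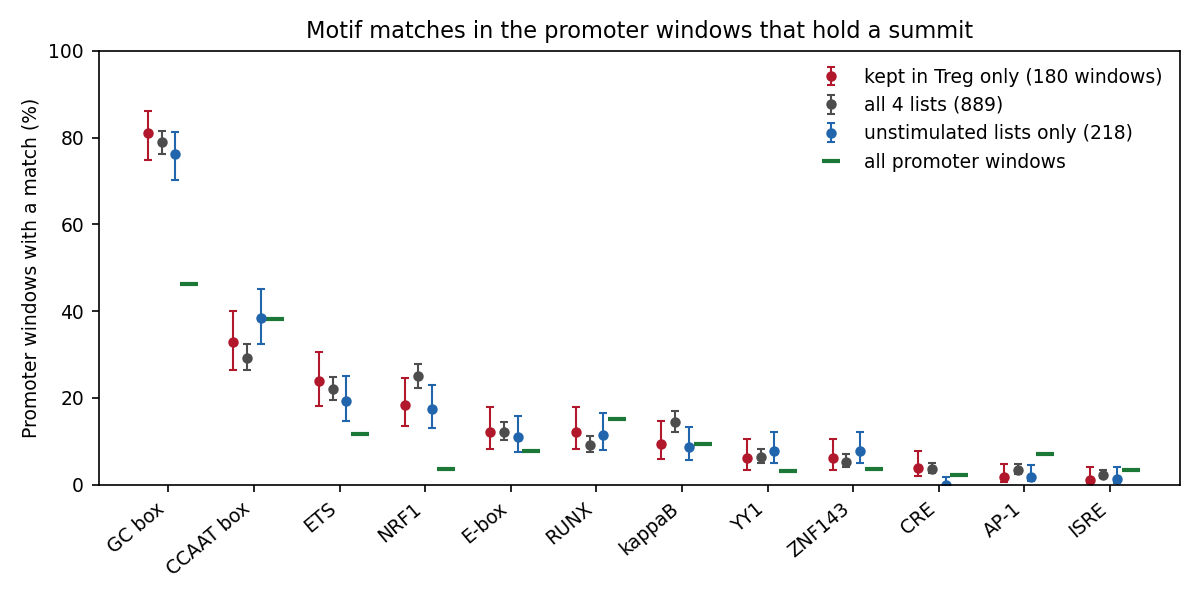
Points give the percentage of promoter windows with a match to each of 12 motifs, with 95% Wilson intervals, for the Treg-kept regions (red), regions of all 4 lists (grey) and of the unstimulated lists alone (blue). Green bars give all 21263 windows. NRF1, ETS and the GC box stand above all windows in each of the 3 sets, and kappaB in Treg-kept windows (9.44%) stands beside all windows (9.25%).

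NRF1 matches sat close to the summit in nearly all windows that held them. The match nearest to the unstimulated Treg summit was within 50 bp in 30 of 33 windows with NRF1 (90.9%, 76.4 to 96.9%), at a median of 13.5 bp. For the GC box this was 101 of 146 (69.2%, median 34.0 bp), for ETS 21 of 43 (48.8%, median 59.0 bp), for kappaB 8 of 17 (47.1%, median 59.5 bp) and for RUNX 6 of 22 (27.3%, median 104 bp). From the stimulated Treg summit the NRF1 share was 66.7%, and from the unstimulated Tconv summit 87.9%, both computed after the values above were seen. Regions of all 4 lists gave 87.4% for NRF1 and 48.4% for kappaB, and those of the unstimulated lists alone 89.5% and 42.1%. The differences between motifs were not tested, and windows with several matches, as for the GC box, have a nearer one for that reason alone.

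**Figure D5:**
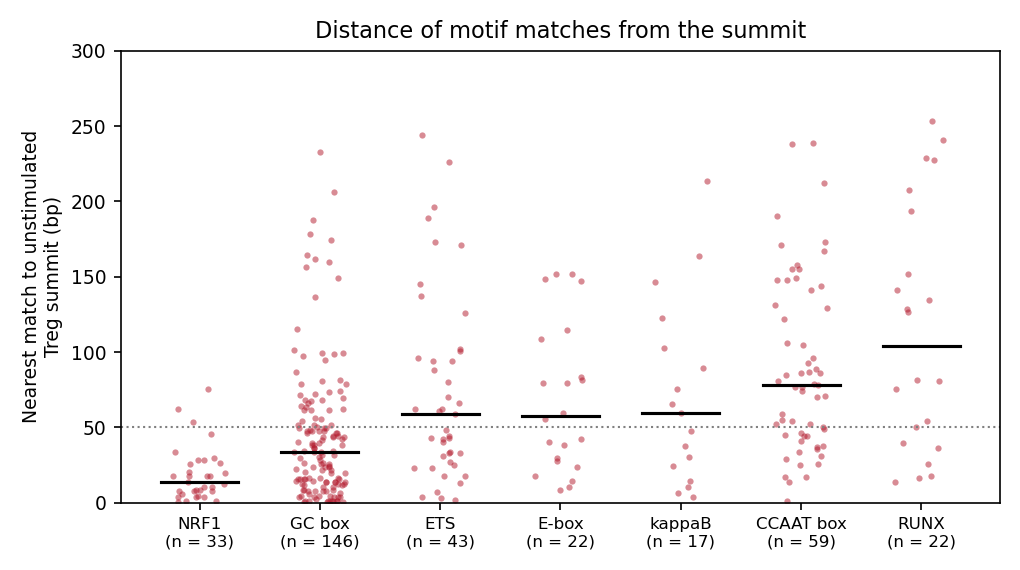
Each point is a promoter window of a Treg-kept region, placed by the distance in bp from the unstimulated Treg summit to the nearest match of the motif, for 7 motifs. Black bars are medians, 13.5 bp for NRF1 and 59.5 bp for kappaB, and the dotted line marks 50 bp.

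Each region was given to the nearest protein-coding gene within 50 kb, which is not shown to be its target. The 338 regions with such a gene named 336 genes, 1.53% of the 21900 in the annotation, and Abcg1, a cholesterol exporter gene, and Mex3c, an RNA-binding ubiquitin ligase gene, had 2 regions each. Stimulated Tconv had another region at 56 of the 336 genes (16.7%, 13.1 to 21.0%), close to its share of all protein-coding genes (16.5%). For the genes of the unstimulated lists alone it was 57 of 464 (12.3%). Both sets of genes were chosen by a site without a stimulated Tconv region. The share of all genes has no such condition, so it is not counted alike.

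No gene of the gene list chosen for NF-kB had a Treg-kept region in the peak lists as deposited. Of 41 genes for NF-kB subunits, inhibitors and feedback, 0 had a Treg-kept region, while 24 had a region of all 4 lists. The counts were 0 of 30 against 12 for early activation genes, 0 of 30 against 6 for T cell receptor signalling, 0 of 29 against 5 for interferon response and antigen presentation, and 0 of 32 against 2 for cell death and survival. With summits matched within 250 bp, 1 NF-kB gene and 1 early activation gene had such a region, and in the upper 50% of each list 2 T cell receptor signalling genes and 1 early activation gene did. At a background of 1.53%, lists of this length would hold few Treg-kept regions in any case. All genes together had a region of all 4 lists at 7.12%.

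Of 32 Treg identity genes, 1 had a Treg-kept region. It was Irf4, a transcription factor of effector Treg and of activated T cells. The region, chr13:30766745-30767860, lay outside the gene, 0.213 kb from its end, with a fold enrichment of 12.2 in stimulated Treg, 6.39 in unstimulated Treg and 7.61 in unstimulated Tconv. Irf4 was the nearest gene of 5 regions in stimulated Treg and 2 in stimulated Tconv, the latter not at this site. The nearest stimulated Tconv peak lay 4.72 kb from this region.

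Chromatin, RNA processing and transcription lists each held 5 or 6 genes with a Treg-kept region. Of all protein-coding genes, 1.53% had a Treg-kept region and 7.12% a region of all 4 lists. Regions of the unstimulated lists alone gave 7 of 95 chromatin modifiers (7.37%), 6 of 118 spliceosome and RNA-binding genes (5.08%) and 2 of 119 RNA polymerase, Mediator and general factors (1.68%), against 2.12% of all genes. At the common limit 0 chromatin modifiers, 3 spliceosome and RNA-binding genes and 0 general factors still had a Treg-kept region. Chromatin modifiers had 6 of 95 (6.32%), against 25.3% with a region of all 4 lists. Among them were Setd2 and Setd1a, which methylate histone tails, Kmt5b, which methylates another, the demethylase gene Kdm7a and the deacetylase gene Hdac4. Kmt5b had a fold enrichment of 12.6 in stimulated Treg, 8.46 in unstimulated Treg and 5.91 in unstimulated Tconv. Setd2 had 11.5, 7.63 and 7.39 in the same order. Hdac4 had 8.19, 9.53 and 6.89, with a stimulated Tconv peak 0.672 kb away. The summit of Setd2 was 0.045 kb from an end of the gene.

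Spliceosome and RNA-binding proteins had 6 of 118 (5.08%), against 20.3% with a region of all 4 lists. Over all genes these shares were 1.53% and 7.12%. Hnrnpa0 had 13.7 in stimulated Treg, 11.5 in unstimulated Treg and 10.6 in unstimulated Tconv, and Hnrnpf had 12.7, 7.89 and 5.64. Srsf5, which encodes a serine and arginine rich splicing factor, had 11.2, 17.3 and 12.0, and Prpf4b, a kinase of the spliceosome, had 8.56, 6.64 and 7.94. The region given to Hnrnpu lay 30.2 kb outside it, with 11.5, 11.0 and 11.6.

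RNA polymerase, Mediator and general factors had 5 of 119 (4.20%), against 1.53% of all genes. They were 3 subunits of Integrator, the complex that cleaves nascent RNA, and 2 of the TFIID complex. Ints11, the catalytic subunit, had a fold enrichment of 8.40 in stimulated Treg, 8.30 in unstimulated Treg and 13.8 in unstimulated Tconv. Ints5 had 7.57, 5.81 and 6.46, Ints10 had 7.29, 9.50 and 9.38, Taf5 had 10.4, 5.48 and 8.59, and Taf13 had 9.40, 8.97 and 8.78. The summit was 0.005 kb from a gene end at Ints10 and, farthest of the 5, 0.751 kb at Taf5.

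Autophagy genes had 3 of 33 (9.09%), against 15.2% with a region of all 4 lists and 9.09% with one of the unstimulated lists alone. Over all genes the same shares were 1.53%, 7.12% and 2.12%. Map1lc3b, which encodes the LC3 protein of the autophagosome membrane, had 7.90 in stimulated Treg, 10.6 in unstimulated Treg and 10.2 in unstimulated Tconv. The initiating kinase gene Ulk2 had 7.57, 8.80 and 8.49. Both lay below the median of the Treg-kept regions in stimulated Treg and above it in both unstimulated lists.

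Mitochondrial genes were represented by 5 of 109 genes of the respiratory chain (4.59%) and 2 of 78 mitochondrial ribosomal proteins (2.56%), against 8.26% and 2.56% with a region of the unstimulated lists alone. Over all genes, 1.53% had a Treg-kept region and 2.12% one of the unstimulated lists alone. The respiratory genes were Cox6c of complex IV, Atp5mpl of the ATP synthase, the complex II assembly factor gene Sdhaf4, Ndufv1 and Cox7a2l. Their fold enrichment in stimulated Treg ran from 5.22 at Ndufv1 to 8.33 at Cox7a2l, all under the median of 8.72. Mrpl40 had 10.2 in stimulated Treg, 7.47 in unstimulated Treg and 8.86 in unstimulated Tconv, and Mrpl12 had 7.39, 8.96 and 7.94.

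Vesicle traffic and protein turnover gave further members, beside a background of 1.53% of all genes. Rab GTPases and their Tbc1d regulators had 4 of 99 (4.04%), where Rab3a had 13.5 in stimulated Treg, 6.14 in unstimulated Treg and 5.72 in unstimulated Tconv, and Rab12 and Rab2a had 8.56 and 8.05 in stimulated Treg. Ubiquitin enzymes had 3 of 182 (1.65%), which was near the background, and with Usp37 these were Ube2v1, with 10.5 in stimulated Treg, and Usp22, with 8.56. Genes of C2H2 zinc fingers named Zfp had 5 of 397 (1.26%), below the background, from Zfp82 with 6.46 to Zfp563 with 11.3 in stimulated Treg. Aminoacyl-tRNA synthetases had 1 of 35 (Eprs, 10.1 in stimulated Treg) and DNA repair genes 1 of 40 (Xrcc1, 8.99). Cytosolic ribosomal proteins had 0 of 84, proteasome subunits 0 of 51 and translation factors 0 of 70. Over the 20 lists together, 42 of 1695 genes (2.48%) had a Treg-kept region, against 4.19% with a region of the unstimulated lists alone.

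Some Treg-kept regions lay at genes that T cell biology knows well but no list held, and these were chosen after their values were seen. Hif1a, the oxygen-sensitive transcription factor gene, had 11.3 in stimulated Treg, 5.66 in unstimulated Treg and 6.35 in unstimulated Tconv. The region near Id3, an inhibitor of E proteins, lay 2.56 kb outside the gene with 10.7, 5.97 and 5.91. Peli1, a ubiquitin ligase that restrains NF-kB in T cells, had 10.5, 7.19 and 5.17. It was also the nearest gene of 6 regions of stimulated Tconv. The transferrin receptor gene Tfrc had 10.2, 8.86 and 6.97, and Mapk8, which encodes the kinase JNK, had 9.05, 6.14 and 7.20. Stimulated Tconv had 0 regions with Tfrc or Mapk8 as the nearest gene. Inside Stat5b, which carries IL-2 receptor signals, the region chr11:100814306-100815131 was stronger within the unstimulated lists, with 7.41 in stimulated Treg, 13.1 in unstimulated Treg and 12.0 in unstimulated Tconv. Its gene was nearest to 7 regions of stimulated Treg and 5 of stimulated Tconv.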

How the data were processed

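p65 ChIP-seq was measured in 8 immunoprecipitated libraries, 2 in each of 4 groups, and 2 input libraries, for which no peak list was analysed. The submitters' processing notes name build mm10, MACS2 2.1.1.20160309, Trim Galore 0.4.1 and BWA 0.7.15-r1140. The role of the inputs in peak calling was not given in the sources read. The authors' lists describe peaks of pooled replicates by their names, so values and depth per library were not analysed here. Those names also read "noBlacklist" and "idr_conservative", so entries were filtered after calling. Fold enrichment, a ratio of summit signal to local background, and −log10 p were used as the authors deposited them, and the deposited score is 10 times the −log10 p.

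Overlapping entries were merged within lists and across the 4 lists by at least 1 bp, with the strongest summit of each list kept. Genes (21900 protein-coding) and promoter windows (21263 windows of 17492 genes) were RefSeq's for GRCm38.p6, and other windows were not used here. Of the 268 symbols of the gene lists, 1 had no match. Shares carry 95% Wilson intervals. Position and motifs were compared with Fisher's exact test and Benjamini-Hochberg adjustment over 2 and 24 tests, with a threshold of 0.05. Genes were named as the 10 highest folds in stimulated Treg, the 5 highest in each unstimulated list, the 5 lowest −log10 p, the 5 regions just outside and the 5 nearest to a stimulated Tconv peak, and up to 5 per gene list. Of this last group some are given by range or count, and some genes that the rule names are not reported here. The members, gene lists and rules were chosen with earlier results of these data known. Overlaps, gene assignment and motif search were tested on simulated data. Python 3.11.15, pandas 2.3.3 and scipy 1.17.1 were used.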

Additional observations from a re-analysis of the deposited data

How the results depend on the processing

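No paired analysis was possible because each list holds peaks of pooled replicates and none per library, and leaving out a replicate was not run for the same reason. The count of Treg-kept regions was 345 by pairwise overlap, by 1 bp or by 50% of the shorter region. With summits matched within 250 bp, regions kept in Tconv alone numbered 134, 88.1% of summits were within 100 bp between states of Treg, and 1 motif differed from the unstimulated lists alone. At the common −log10 p limit the counts were 34 kept in Treg and 155 in Tconv at 34 genes, with 85.3% of summits within 100 bp, 88.2% near a gene end, and odds ratios of 1.90 against all 4 lists and 2.29 against the unstimulated lists alone (adjusted p = 0.278 each, Fisher's exact test on fewer regions). At equal list lengths they were 25 and 464 at 24 genes, with 36%, 68% and odds ratios of 1.36 and 0.654. With the upper 50% of each list there were 139 regions, with 93 kept in Tconv, at 137 genes, and the odds ratios were 0.999 and 0.938. Within 500 bp of a gene end lay 74.7%, and within 5 kb 87.8%, with an odds ratio against all 4 lists of 1.25 (adjusted p = 0.237, Fisher's exact test). Within the quartiles of unstimulated Treg −log10 p both differences kept their direction and call (adjusted p = 0.0023 and 0.00893, Fisher's exact test). Counts of list genes with a Treg-kept region moved in 5 of 20 lists by summits, in 11 at the common limit, in 12 at equal lengths and in 12 in the upper 50%.

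Of single motifs, only kappaB, NRF1 and CRE had their differences between sets followed through the settings. Each difference is the percentage of Treg-kept windows with a match minus that of the other set. These differences changed direction in 13 cases, none past the threshold. Against the unstimulated lists alone, kappaB differed by −2.35 points by summits, −10.6 at equal lengths, −6.53 in the upper 50% and −3.78 within quartiles, where the main value was 0.729. NRF1 differed by −20.1 at equal lengths and −3.99 in the upper 50% (main 0.902), and CRE by −2.14 and −0.701 (main 3.89). Against all 4 lists, CRE differed by −5.18 at equal lengths, −3.37 in the upper 50%, −0.502 within quartiles and −0.193 in windows overlapped by a region (main 0.289), and NRF1 by 3.62 within quartiles (main −6.64). The cause was not tested, and equal lengths left few regions. Depth limits what can be said of regions that a list lacks, and it is unknown.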
